A study of Rattus norvegicus with 30 samples.

Results

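The circadian clock genes of rat hepatocytes described here are Arntl (also called Bmal1), Clock, Per1, Per2, Per3, Cry1, Nr1d1, Nr1d2, Dbp and Tef. They were taken by name: every probe set annotated to 1 of these 10 symbols was a member, whatever its signal. This gave 19 probe sets among 31099 on the array, for 10 of 14218 genes with a symbol. Only 10 of the 19 probe sets, for 7 of the 10 genes, reached the signal level at which a probe set was tested, and all other members are given as levels.

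The mammalian clock is a loop of transcription. Arntl and Clock proteins pair and switch on genes that carry an E-box, among them the Per and Cry genes. The Per and Cry proteins then gather and block the pair, and later decay. Nr1d1 and Nr1d2 encode the nuclear receptors REV-ERB alpha and REV-ERB beta, which repress Arntl in a linked loop. Dbp and Tef encode transcription factors that bind D-box elements and carry the rhythm to liver enzymes. In mouse liver they also drive Nr1i3, the gene for the receptor CAR, through which phenobarbital induces drug metabolism.

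Expression was measured in primary hepatocytes of male Sprague Dawley rats on a GeneChip array, 1 array per culture well. The cells were bought frozen, seeded on collagen beneath a Matrigel layer and given fresh medium daily. Dosing took place in the morning on day 3, and RNA was taken 24 h or 48 h later. The groups were 3000 µM phenobarbital, 300 µM phenobarbital and vehicle at each time, with 5 wells in each of the 6 groups. Vehicle is named water in the titles and culture medium in the field for the agent. All wells share the strain, sex, culture system and medium. By the stated times all harvests fall at the time of day of the dosing, so the groups give a single point of the daily cycle, and no phase, period or amplitude was measured. The labels call the wells independent cultures but name no animals, so that p-values measure the spread between wells only. For 2 arrays the spiked hybridization controls were brighter than elsewhere, and they are called here the arrays that stood apart: well 4 at 3000 µM for 48 h and well 1 of vehicle for 24 h. Their mean control signals were 14.83 and 14.38 on the log2 scale, against 13.21 to 13.60 on the other arrays.

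Hepatocyte markers were present: all 7 marker genes on the array, with albumin (Alb) and Hnf4a among them, passed the filter on signal. Of markers of other liver cells, 5 of 7 macrophage genes, 5 of 8 stellate and fibroblast genes, 1 of 6 endothelial genes, 1 of 4 cholangiocyte genes and 0 of 5 lymphocyte genes passed it. The summed stellate and fibroblast signal at 3000 µM was 11.39 to 11.62 at 24 h, against 11.67 to 11.95 in vehicle wells on the log2 scale. At 48 h it was 11.39 to 11.67 at 3000 µM and 11.71 to 11.94 in vehicle wells, so the groups did not overlap at either time. Of its 5 tested genes, however, limma called 0 higher and 1 lower at each time (adjusted p under 0.05). Of all tested probe sets, 32% were called at 24 h and 39.4% at 48 h. The sums add linear signals, so the brightest genes weigh most in them. The summed hepatocyte signal was 18.30 to 18.42 at 3000 µM and 18.54 to 18.95 in vehicle wells at 24 h, also without overlap. At 48 h it was 18.26 to 19.06 at 3000 µM and 18.32 to 18.59 in vehicle wells, with overlap. Of the 7 hepatocyte genes, limma called 0 higher and 5 lower at 24 h, and 0 higher and 3 lower at 48 h. The summed macrophage signal was 11.22 to 11.45 at 3000 µM and 11.21 to 11.77 in vehicle wells at 24 h. At 48 h it was 11.33 to 11.81 at 3000 µM and 11.11 to 11.47 in vehicle wells, with means of 11.55 and 11.27. Of the 5 tested macrophage genes, limma called 1 higher and 2 lower at 24 h, and 1 higher and 0 lower at 48 h. The 1 tested cholangiocyte gene gave 13.16 to 13.29 at 3000 µM and 13.06 to 13.31 in vehicle wells at 24 h. At 48 h that gene gave 13.24 to 13.38 at 3000 µM and 13.43 to 13.53 in vehicle wells, without overlap, and limma called it lower. The part of these shifts in the clock gene values was not tested. In such bulk samples, fewer cells of a type and less RNA per cell cannot be told apart.

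At 3000 µM some clock genes were higher and others lower than in vehicle wells, while none was called at 300 µM. Clock and Cry1 rose at both times and Nr1d2 rose at 24 h, by 1.20-fold to 1.43-fold. Arntl and Per2 fell at 48 h, by 1.33-fold and 1.26-fold. A probe set of Tef other than its brightest was 1.92-fold lower at 24 h and 1.6-fold lower at 48 h. A gene was counted by its tested probe set with the highest mean signal, called its leading probe set, and a change was called where limma's adjusted p, corrected over all 16596 tested probe sets, was under 0.05. At 3000 µM for 24 h, 3 of 7 tested genes rose and 0 fell, where 32% of all tested probe sets were called. At 48 h, 2 rose and 2 fell, where 39.4% of all tested probe sets were called. With 7 genes, 3 and 4 calls are close to the share of the array as a whole, so the counts are no result about the clock genes. Counting a gene by any of its tested probe sets gave 4 at 24 h, with Tef lower, and 6 at 48 h, with Tef lower and Nr1d2 higher. The share of all genes called in this way was not computed, so these counts too are no result about the clock genes. The median log2 change over the 7 genes was 0.11 at 24 h and -0.13 at 48 h, beside 0.0093 and -0.00083 over all tested probe sets.

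**Figure D1:**
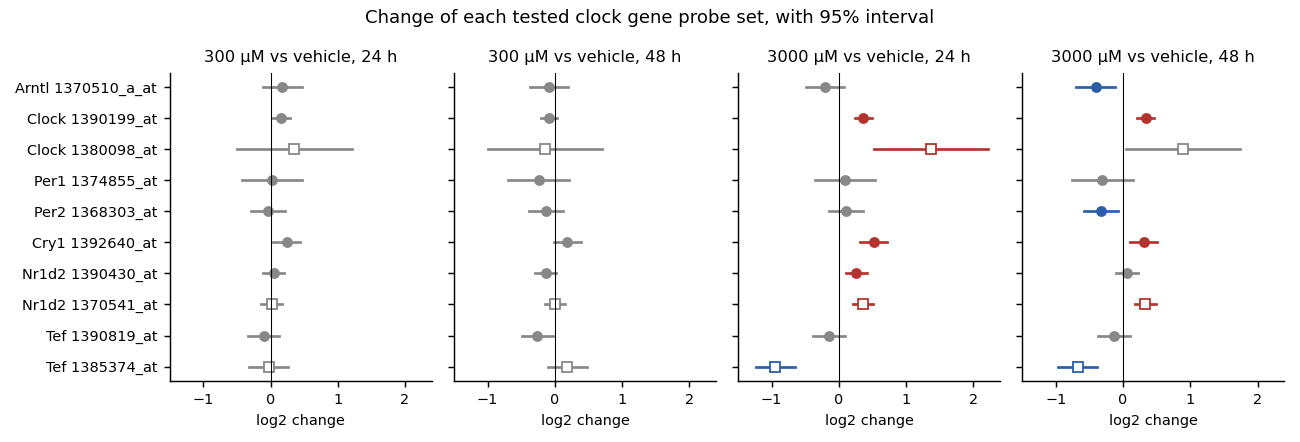
Log2 change against the vehicle wells of the same time for each tested probe set of the clock genes (points) with 95% intervals (lines), in 4 panels by dose and time. Filled circles are leading probe sets and open squares the other probe sets of the same genes. Red marks called rises and blue called falls. Coloured points appear in the 3000 µM panels, 6 at 24 h and 6 at 48 h, and in neither 300 µM panel. Clock 1380098_at reached the filter level only at 3000 µM.

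Among the activators, Clock, whose protein binds E-boxes together with Arntl, rose at both times at 3000 µM. Its leading probe set (1390199_at) gave signals of 3429, 3356, 3240.5, 3649.8 and 3339 in the 5 wells at 3000 µM for 24 h, against 2508, 2444, 2786, 2667 and 2810.0 in the vehicle wells. All 5 wells at 3000 µM lay above all vehicle wells, and the log2 change was 0.37 (SE 0.062, limma adjusted p = 1.74e-05). At 48 h the signals were 3451, 3558, 3262, 3468 and 3246 at 3000 µM, against 2723, 2520.3, 2932, 2473 and 2838 with vehicle. The groups again did not overlap, with a log2 change of 0.33 (SE 0.062, adjusted p = 4.21e-05). At 300 µM the signals were 2915, 2737, 3105, 2909 and 3097 at 24 h and 2403, 2525, 2558, 2734 and 2477 at 48 h. Those at 24 h lay between the vehicle and 3000 µM wells for the most part, but the change from vehicle, 0.16 on the log2 scale with a 95% interval of 0.035 to 0.29, had an adjusted p of 0.188. At 48 h the change at 300 µM was -0.085 (95% interval -0.21 to 0.040).

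A dimmer probe set of Clock (1380098_at) passed the filter only through its 3000 µM groups, so it had to be high there, and its values are a description that adds nothing to the rise above. It gave 829, 722, 656, 749 and 519 at 3000 µM for 24 h, against 119, 367, 469.9, 497 and 127 in vehicle wells. At 48 h it gave 461, 580.4, 666, 321 and 699.7 at 3000 µM and 251, 336, 139, 519 and 303 with vehicle, with overlap. The mean log2 signals at vehicle and 300 µM lay between 8.01 and 8.40, below the filter level of 8.58. The remaining probe sets of Clock, 1389456_at and 1369168_a_at, never reached the filter level in any of the 30 wells.

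Arntl, the partner of Clock in the activating pair, was lower at 48 h. Its single probe set (1370510_a_at) gave 765, 568, 808, 857 and 898 at 3000 µM for 48 h, against 1046, 1100.2, 1026, 1057 and 891 in vehicle wells. Of the 5 wells at 3000 µM, 4 lay below all vehicle wells, and the log2 change was -0.41 (SE 0.14, limma adjusted p = 0.019). The fall was not called without well 2 at 3000 µM, the lowest of its group, where it was -0.30 with an adjusted p of 0.0877. At 24 h the signals were 779.6, 982, 639, 787 and 726 at 3000 µM and 958, 1266, 748, 898 and 701 with vehicle. Vehicle wells were spread widely there and the change, -0.21 with a 95% interval of -0.49 to 0.078, was not called. At 300 µM Arntl gave 1194, 955, 896, 1126 and 912 at 24 h and 1057, 856, 929, 954 and 1050.4 at 48 h, with changes from vehicle of 0.18 and -0.080, neither of them called.

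The bases before the start of Arntl are shown because they hold the element that REV-ERB repressors and ROR activators bind. The sequence is that of RefSeq on build GRCr8, chr1:176766078-176766327 on the plus strand, 250 bases ending at the base before the annotated start. Capitals mark the REV-ERB and ROR element TAGGTCA, found -16 to -10 bases relative to the start, where -1 is the base before it.
Arntl promoter: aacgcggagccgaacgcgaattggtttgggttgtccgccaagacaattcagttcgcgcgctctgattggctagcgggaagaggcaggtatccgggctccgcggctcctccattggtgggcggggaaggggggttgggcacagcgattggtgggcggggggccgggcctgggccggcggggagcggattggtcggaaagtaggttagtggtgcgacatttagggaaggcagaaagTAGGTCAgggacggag
This element, searched on both strands, was present in 2.63% of 33469 rat promoters of 300 bases, each from 250 bases before to 50 after an annotated start. The match describes these letters and is not a binding measurement.

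Of the repressors, Cry1, whose protein blocks the Arntl and Clock pair, rose at both times. Its probe set (1392640_at) gave 1603, 1801, 1498, 1588 and 1498 at 3000 µM for 24 h, against 1148, 987, 1046, 1286 and 1119 in vehicle wells. This was the largest change among the leading probe sets of the 7 clock genes at 3000 µM against vehicle, 0.52 on the log2 scale (SE 0.10, limma adjusted p = 9.83e-05), without overlap between the groups. At 48 h Cry1 gave 1347, 1647, 1599, 1394 and 1395 at 3000 µM, against 1108, 1196, 1245, 1249.7 and 1164 with vehicle. All wells at 3000 µM were again higher, by 0.30 (SE 0.10, adjusted p = 0.0136). The wells at 300 µM gave 1189, 1559, 1199, 1270.5 and 1389.8 at 24 h and 1245, 1680.2, 1487, 1157 and 1278 at 48 h. Their changes from vehicle were 0.24 (95% interval 0.039 to 0.44, adjusted p = 0.231) and 0.19 (95% interval -0.014 to 0.39, adjusted p = 0.474), and neither was called.

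**Figure D2:**
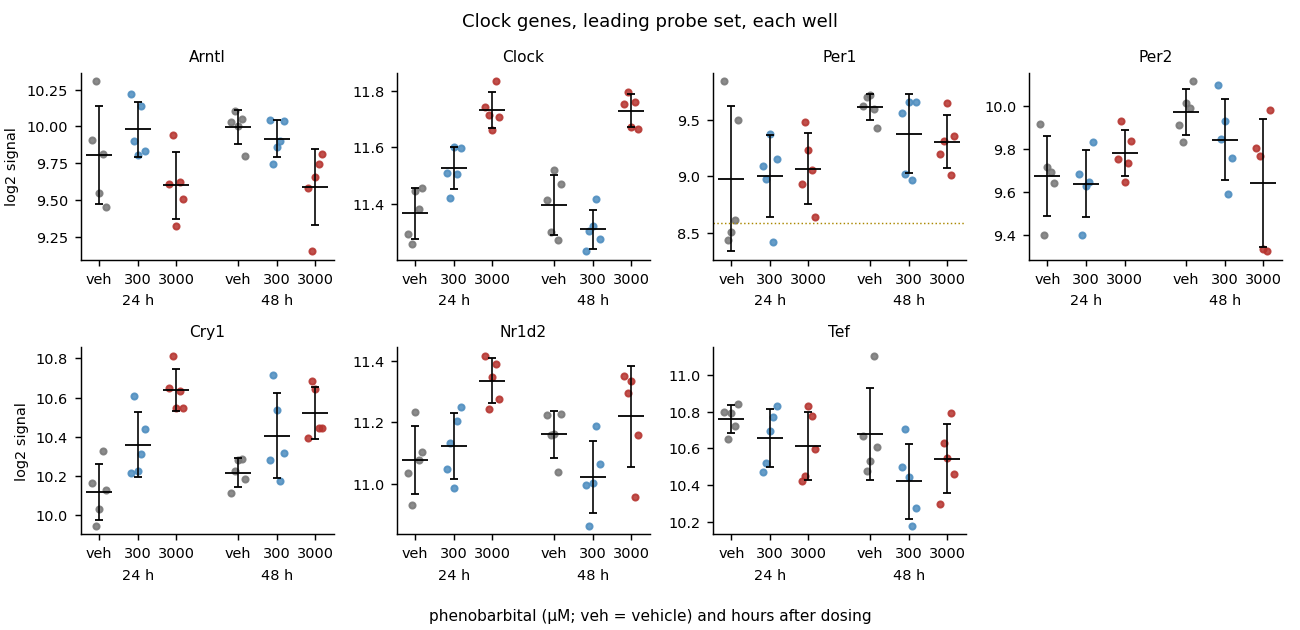
Log2 signal of the leading probe set of each of the 7 tested clock genes in each well (points), with the mean and SD of 5 wells (bars), for vehicle, 300 µM and 3000 µM at 24 h and 48 h. The dotted line, where shown, is the filter level. The 3000 µM wells of Clock and Cry1 sit above all vehicle wells of the same time, and those of Nr1d2 do so at 24 h.

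Per2, a partner of Cry1 in the repressing complex, fell at 48 h in a way that rested on few wells. Its tested probe set (1368303_at) gave 894, 871, 645, 640.2 and 1011 at 3000 µM, against 963, 912, 1034, 1017 and 1109 in vehicle wells. Wells 3 and 4 at 3000 µM were far below all others, and well 5 lay inside the vehicle range. The log2 change was -0.33 (SE 0.12, limma adjusted p = 0.0315). Without the 2 arrays that stood apart, of which well 4 at 3000 µM is the one in this comparison, it was -0.25 with an adjusted p of 0.101. Without well 3 it was -0.25 with an adjusted p of 0.115. Among the 19 other settings the call was lost in 10, the most among the 7 calls on leading probe sets of the clock genes at 3000 µM against vehicle. At 24 h Per2 gave 863, 975, 801, 851 and 914 at 3000 µM and 966, 674, 841, 828 and 799 with vehicle, a change of 0.11 (95% interval -0.15 to 0.36) that was not called. At 300 µM its signals were 823, 675, 790.1, 800.2 and 912 at 24 h and 1094, 919, 974, 771 and 865 at 48 h, with uncalled changes from vehicle of -0.036 and -0.13.

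Per1, the sister gene of Per2 that responds fast to hormones and cAMP, was called in no comparison with vehicle. Its probe set (1374855_at) gave 489, 713, 601, 532 and 399.9 at 3000 µM for 24 h, against 917, 346, 365, 393 and 724 in vehicle wells. The highest vehicle well was array 1, which stood apart. At 48 h the signals were 588, 637, 801, 515 and 654 at 3000 µM and 788, 834, 844, 775 and 687 with vehicle. The changes were 0.088 (95% interval -0.36 to 0.54) and -0.31 (95% interval -0.76 to 0.14), with intervals wider than those of any other leading probe set. At 300 µM Per1 gave 545, 503, 665, 342 and 571 at 24 h and 756, 519.8, 809, 501 and 809 at 48 h.

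The bases before Per2 are shown because they held both an E-box variant, the kind of element through which the Arntl and Clock pair acts, and a D-box, the kind bound by Dbp and Tef. The sequence is from RefSeq on GRCr8, chr9:99496994-99497243 on the minus strand, 250 bases written along the gene. Capitals mark the D-box TTATGTAA at -192 to -185 and the noncanonical E-box CACGTT at -62 to -57.
Per2 promoter: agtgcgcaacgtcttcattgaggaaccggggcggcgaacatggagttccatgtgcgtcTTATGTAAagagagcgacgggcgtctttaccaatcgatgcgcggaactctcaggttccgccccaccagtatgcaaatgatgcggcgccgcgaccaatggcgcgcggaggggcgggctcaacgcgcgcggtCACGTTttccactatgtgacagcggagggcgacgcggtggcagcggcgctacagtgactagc
The 2 D-box spellings searched, TTATGTAA and TTACGTAA, were found in 1.01% of all rat promoters and CACGTT in 4.83%, on either strand. The listed entries of Per1, Per3, Clock, Nr1d2 and Dbp held none of the 5 motifs, whose remaining member, the cAMP element TGACGTCA, was in 1.83% of all promoters. Cry1 had no entry.

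Nr1d2, which encodes REV-ERB beta, was read by 2 tested probe sets that did not give the same answer at 48 h. The leading probe set (1390430_at) gave 2735, 2425, 2607, 2684 and 2483 at 3000 µM for 24 h, against 2101, 1950.4, 2409.9, 2160.3 and 2201 in vehicle wells. All wells at 3000 µM were higher, by 0.26 (SE 0.078, limma adjusted p = 0.00964). The 48 h signals were 2613, 2515, 2584, 1989 and 2285 at 3000 µM, against 2391, 2285, 2289, 2101 and 2395 with vehicle, and the change of 0.059 (95% interval -0.10 to 0.22) was not called. The lowest well at 3000 µM was array 4, which stood apart, and without both such arrays the change was 0.12 (adjusted p = 0.196).

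The other probe set of Nr1d2 (1370541_at) rose at both times. It gave 1672, 1850.0, 1816, 1766 and 1691 at 3000 µM for 24 h, against 1452, 1333, 1259, 1429.9 and 1400.5 in vehicle wells. For 48 h they were 1643, 1771, 1651, 1657 and 1944 at 3000 µM, against 1432, 1261, 1523, 1444 and 1234 with vehicle. No well at 3000 µM overlapped a vehicle well at either time, and the log2 changes were 0.36 (SE 0.075, limma adjusted p = 0.000334) and 0.33 (SE 0.075, adjusted p = 0.000546). At 300 µM its changes were 0.013 and 0.0024, with 95% intervals reaching no further than -0.15 and 0.17. The log2 ratio of this probe set to the leading one within a well at 48 h averaged -0.46 ± 0.21 at 3000 µM and -0.74 ± 0.18 with vehicle (SD, n = 5 wells each). The difference of 0.27 did not pass an exact 2-sided permutation test (p = 0.0714, adjusted p = 0.143 over 6 such ratios). These ratio tests were chosen after the values had been seen. The remaining probe set of Nr1d2 (1370540_at) stayed below the filter level in all 30 wells.

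Tef, which encodes a D-box binding activator, had 2 tested probe sets that gave different answers at 3000 µM. The leading probe set (1390819_at) gave 1372, 1400.3, 1821, 1756 and 1546 at 3000 µM for 24 h, against 1778, 1608, 1773, 1689.9 and 1838 in vehicle wells. After 48 h it gave 1257, 1583, 1495, 1776 and 1408 at 3000 µM and 1629, 1426, 1479.8, 2205 and 1559.7 with vehicle. The groups overlapped at both times, and the changes of -0.15 (95% interval -0.38 to 0.087) and -0.13 (95% interval -0.37 to 0.10) were not called. At 300 µM the leading probe set gave 1421, 1466, 1657, 1750.0 and 1823 at 24 h and 1448, 1671, 1391, 1159 and 1239 at 48 h, with an uncalled change of -0.26 at 48 h (adjusted p = 0.343).

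The other tested probe set of Tef (1385374_at) fell at 3000 µM at both times, the largest called falls among the 10 tested probe sets of the clock genes. It gave 629.5, 440.0, 525, 720.4 and 546 at 3000 µM for 24 h, against 1283, 1085, 907, 1239 and 961 in vehicle wells, a 1.92-fold lower level. The 48 h wells gave 767, 671, 418, 636 and 598 at 3000 µM, against 1003, 936, 1123, 769 and 1047 with vehicle, 1.6-fold lower. Every well at 3000 µM was below every vehicle well of its time. The log2 changes were -0.94 (SE 0.14, limma adjusted p = 3.53e-06) and -0.68 (SE 0.14, adjusted p = 0.00027). The 300 µM wells gave 919, 975, 1181, 1054 and 1212 at 24 h and 1137, 1037, 1192, 1167 and 986 at 48 h, within or near the vehicle range. The log2 ratio of this probe set to the leading one within a well at 24 h averaged -1.47 ± 0.27 at 3000 µM and -0.68 ± 0.25 with vehicle (SD, n = 5 wells each). The difference of -0.80 had an exact permutation p of 0.00794, the smallest that 5 against 5 wells can give, and an adjusted p of 0.0476. At 48 h the difference was -0.54 (exact permutation p = 0.0952, adjusted p = 0.143). Which transcripts of Tef each probe set reads was not analysed here, so a fall of the whole gene cannot be stated. The remaining probe set of Tef (1369919_at) stayed below the filter level in all 30 wells.

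**Figure D3:**
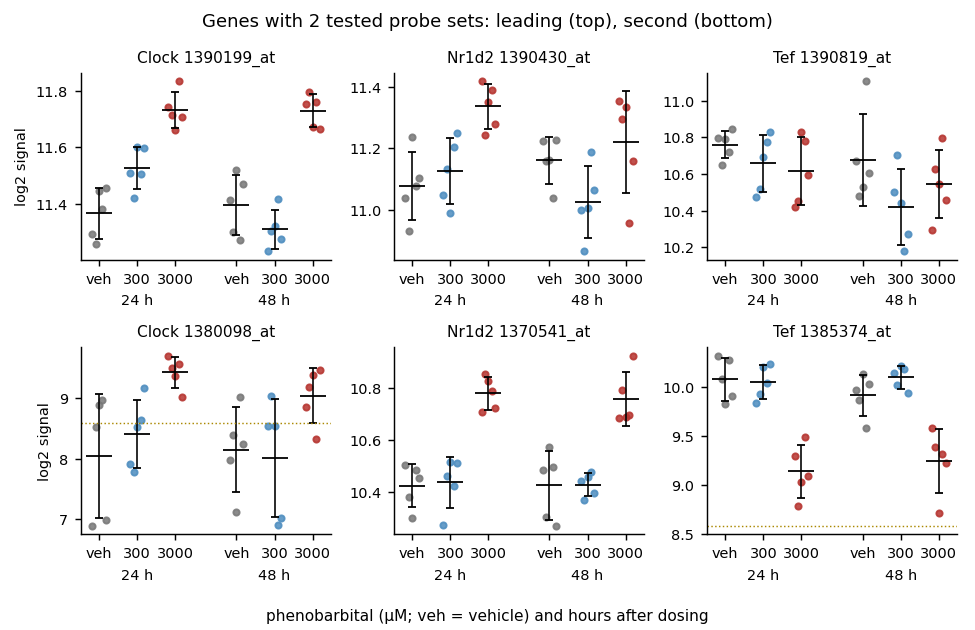
Log2 signal in each well (points) with the mean and SD of 5 wells (bars) for the 3 clock genes with 2 tested probe sets, the leading probe set in the upper row and the other in the lower row. Dotted lines mark the filter level. The 3000 µM wells of Tef 1385374_at lie below all vehicle wells at both times while those of Tef 1390819_at overlap them.

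The bases before Tef are shown because they held the canonical E-box CACGTG, the element bound by the Arntl and Clock pair. The sequence is from RefSeq on GRCr8, chr7:115206577-115206826 on the plus strand, 250 bases, with the E-box at -198 to -193 in capitals.
Tef promoter: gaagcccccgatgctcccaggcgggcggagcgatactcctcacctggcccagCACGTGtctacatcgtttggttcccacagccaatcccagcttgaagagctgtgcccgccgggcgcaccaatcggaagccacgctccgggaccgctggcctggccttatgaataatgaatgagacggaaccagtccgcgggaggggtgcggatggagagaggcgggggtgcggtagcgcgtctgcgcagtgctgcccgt
CACGTG was in 6.42% of all rat promoters. Nr1d1, another classical E-box target, has 2 annotated starts in the table. The stretch before one of them held CACGTG at -191 to -186 and the stretch before the other held AACGTG, the noncanonical E-box on the opposite strand, at -174 to -169.

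Nr1d1, Dbp and Per3 stayed below the filter level in their group means. These 3 genes are strongly rhythmic in liver. Nr1d1 (1370816_at, REV-ERB alpha) gave 157, 210.4, 79.6, 211 and 118 at 3000 µM for 24 h, against 228, 273, 228, 242 and 156 in vehicle wells. After 48 h its signals were 169.7, 235, 168, 273 and 182 at 3000 µM and 148, 259, 147, 187 and 216 with vehicle, and the groups overlapped at both times. Dbp (1387874_at), the founding D-box activator, gave 330.2, 263, 334, 264 and 219 at 3000 µM for 24 h and 539.5, 288, 290.3, 192 and 217 with vehicle. At 48 h Dbp gave 208, 198, 309.8, 432 and 258 at 3000 µM, against 333, 439, 367, 352 and 409.8 in vehicle wells. The highest 24 h vehicle well and the highest 48 h well at 3000 µM were the 2 arrays that stood apart. At 300 µM Nr1d1 gave 215, 227, 236, 200.2 and 233 at 24 h and 185, 271, 189.7, 208 and 141 at 48 h, within the range of the vehicle wells or close to it. Dbp gave 234, 234, 236, 229 and 299 at 24 h and 291, 271, 302, 165 and 322 at 48 h, where all 5 wells lay below all vehicle wells. In a limma fit with no filter that change of Dbp was -0.52 on the log2 scale (unadjusted p = 0.0444, adjusted p = 0.575), and the change of Nr1d1 at 3000 µM for 24 h was -0.61 (unadjusted p = 0.0378, adjusted p = 0.16). The 48 h vehicle mean of Dbp, a log2 signal of 8.56, lay just under the filter level of 8.58, and 4 of its 30 wells reached it.

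Per3, a Per gene tied to clock output more than to the loop itself, had 2 probe sets with signals of 55.5 to 362 (1378745_at) and 37.3 to 339 (1388239_at) over the 30 wells. No well reached the filter level on either. The dimmer probe set of Per2 (1378560_at) reached it in 2 wells, 1 vehicle well at 852 and 1 well at 300 µM at 520.0, both at 24 h. When the same limma fit was run with no filter, the 9 probe sets below it gave 0 calls among 81 tests, with 4 unadjusted p-values under 0.05 and a lowest adjusted p of 0.16. The SD between wells of a group, on the log2 scale, was 0.36 for Nr1d1 and 0.37 for Dbp, like the 0.37 of the tested Per1. It was 0.91 and 0.98 for the probe sets of Per3.

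**Figure D4:**
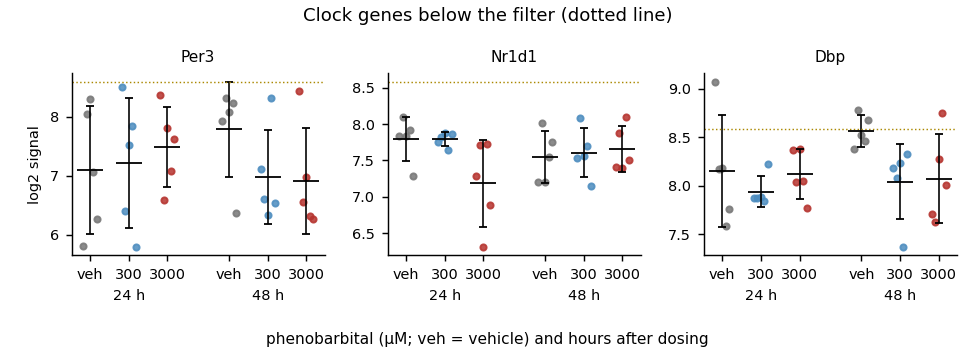
Log2 signal of Per3 (1378745_at), Nr1d1 and Dbp, the 3 clock genes below the filter, in each well (points) with the mean and SD of 5 wells (bars), by dose and time. The dotted line is the filter level of 8.58. All Per3 and Nr1d1 wells lie under it, as do all but 4 Dbp wells.

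No clock gene was called at 300 µM. At 24 h limma called 0 of 7 genes, with 2 at an unadjusted p under 0.05, where 2.99% of all tested probe sets were called. At 48 h it called 0 of 7, with 1 at an unadjusted p under 0.05, where 1.54% of all tested probe sets were called. The changes of the leading probe sets lay between -0.10 and 0.24 at 24 h and between -0.26 and 0.19 at 48 h on the log2 scale. Their medians were 0.048 and -0.13, beside 0.0013 and -0.015 over all tested probe sets. These misses do not show that the low dose left the genes unmoved: for Cry1, changes up to 0.44 at 24 h lie inside the interval.

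The 2 doses were also compared directly. The 3000 µM wells are shared with the comparison against vehicle, and both doses share the vehicle wells of a time. At 24 h, 3 genes were higher and 1 lower at 3000 µM than at 300 µM, where 26.1% of all tested probe sets were called. At 48 h, 2 were higher and 0 lower, where 34.9% of all tested probe sets were called. Clock was higher at both times without overlap, by 0.21 (SE 0.062, limma adjusted p = 0.0121) and 0.42 (SE 0.062, adjusted p = 1.58e-06). At 24 h Cry1 was higher by 0.28 (adjusted p = 0.0349) and Nr1d2 by 0.21 (adjusted p = 0.0418), and Arntl was lower, with a log2 difference of -0.38 (adjusted p = 0.0409). Those of Cry1, Nr1d2 and Arntl, and that of Nr1d2 at 48 h (0.20, adjusted p = 0.0483), were near the threshold and were lost in 8 (Cry1), 9 (Nr1d2), 9 (Arntl) and 13 (Nr1d2 at 48 h) of 19 other settings. The probe set Tef 1385374_at was lower at 3000 µM without overlap, with log2 differences of -0.91 at 24 h (adjusted p = 8.49e-06) and -0.86 at 48 h (adjusted p = 1.22e-05). Nr1d2 1370541_at was higher without overlap, by 0.34 and 0.33 (adjusted p = 0.000678 and 0.000702).

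In vehicle wells no clock gene was called between 48 h and 24 h: limma called 0 of 7 genes, with 2 at an unadjusted p under 0.05, where 7.2% of all tested probe sets were called. Those 2 were Per1 and Per2. Per1 was 0.63 higher at 48 h on the log2 scale (SE 0.22, adjusted p = 0.0805), with the 48 h wells close together and the 24 h wells split, arrays 1 and 5 above the other 3. Without array 1 of the 24 h wells the difference was 0.85 (adjusted p = 0.0118), and without array 5 it was 0.76 (adjusted p = 0.0372). Per2 was 0.30 higher at 48 h (adjusted p = 0.151). By the labels these groups differ in time since dosing, and so in culture age.

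The effect of phenobarbital was not shown to differ between the times for any clock gene. For 3000 µM the difference of the effects, 48 h minus 24 h, was called by limma for 0 of 7 genes, with 1 at an unadjusted p under 0.05, where 4.15% of all tested probe sets were called. That gene was Per2, at -0.44 (SE 0.17, adjusted p = 0.155). The falls of Arntl and Per2 were therefore called at 48 h without being shown to differ from 24 h, and for Arntl the difference was -0.20 with a 95% interval of -0.60 to 0.20. For 300 µM it was called by limma for 0 of 7 genes, with 1 at an unadjusted p under 0.05 (Clock, -0.25, adjusted p = 0.485), where 0% of all tested probe sets were called and 1251 had an unadjusted p under 0.05.

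Genes around the clock were counted from 4 lists, and each count is read against the 32% and 39.4% of all tested probe sets called at 3000 µM for 24 h and 48 h. Other regulators of the clock came from a list of 10 genes, of which 8 were on the array and 6 tested. At 3000 µM 0 rose and 1 fell at 24 h, and 0 rose and 2 fell at 48 h. The median change was -0.16 and -0.18 on the log2 scale. Npas2, which can take the place of Clock beside Arntl, fell most among the leading probe sets. It gave 588, 548, 484, 581 and 533 at 3000 µM for 24 h, against 1031, 1080.4, 1299, 1229.9 and 1504 in vehicle wells. After 48 h Npas2 gave 841, 510.1, 614, 562 and 518 at 3000 µM, against 1716, 1397, 1428, 1692 and 1326 with vehicle. The groups did not overlap, and the falls were 2.23-fold (-1.16 on the log2 scale, SE 0.14, limma adjusted p = 3.47e-08) and 2.51-fold (-1.33, SE 0.14, adjusted p = 1.14e-09). Npas2 and Clock thus moved in opposite directions in the same wells. Bhlhe40, which encodes the E-box repressor DEC1, fell at 48 h. It gave 2813, 2576, 2886, 4381 and 2972 at 3000 µM, against 3547, 3549, 3965, 4359 and 3955 with vehicle, a change of -0.33 (SE 0.10, adjusted p = 0.00621). Its well 4 at 3000 µM, on an array that stood apart, lay above all vehicle wells and the other 4 below them, and without both such arrays the change was -0.46 (adjusted p = 1.26e-05). With the compared groups alone in the limma fit, the call of Bhlhe40 at 48 h was lost (-0.33, adjusted p = 0.0533). Cry2, Hlf, Nfil3 and Rora were not called at 3000 µM against vehicle on their leading probe sets. Other probe sets of Rora and Hlf, activators through the REV-ERB element and the D-box, were lower at 48 h: Rora 1380478_at changed by -1.36 (adjusted p = 0.00294), Hlf 1386641_at by -0.75 (adjusted p = 0.00392) and Hlf 1374709_at by -0.50 (adjusted p = 0.0476). None of these was called at 24 h, where the changes were -0.88, -0.41 and 0.13 in the same order (limma adjusted p = 0.062, 0.135 and 0.663).

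Kinases and ubiquitin ligases set the lifetime of the Per and Cry proteins. Of 6 tested genes on the list, 1 rose and 0 fell at 3000 µM for 24 h, and 0 rose and 1 fell at 48 h, with medians of 0.040 and -0.040. Csnk2a1, the catalytic subunit of casein kinase 2, rose by 0.17 at 24 h (limma adjusted p = 0.0434), a call lost in 14 of 19 other settings. Of its 4 other tested probe sets, 1376616_at (0.57, adjusted p = 0.00285) and 1387170_at (0.26, adjusted p = 0.0495) also rose at 24 h, and 1387170_at rose at 48 h (0.37, adjusted p = 0.00417). Csnk1e, casein kinase 1 epsilon, fell by 0.44 at 48 h (adjusted p = 0.00241). Its other tested probe sets were not called at 48 h and had changes of the opposite sign, 0.34 for 1369804_a_at (adjusted p = 0.0899) and 0.19 for 1386693_at (adjusted p = 0.475). Csnk1d, the sister kinase, was not called on its leading probe set. Its other tested probe sets disagreed at 48 h, with changes of 0.30 for 1370527_a_at (adjusted p = 0.00239) and -0.56 for 1373332_at (adjusted p = 1.69e-07). At 24 h, 1373332_at (-0.34, adjusted p = 0.000395) and 1395914_at (-0.43, adjusted p = 0.00466) were lower. Neither 1370527_a_at at 24 h, 1395914_at at 48 h nor 1370528_at at either time was called.

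Most liver genes on the list of those that follow the clock in rodents were lower at 3000 µM. Of 9 tested, 2 rose and 5 fell at 3000 µM for 24 h, and 0 rose and 6 fell at 48 h, with medians of -0.32 and -0.36. Gys2, liver glycogen synthase, gave 2009, 1085, 1971, 2407 and 2009 at 3000 µM for 24 h, against 5665, 4282, 5889.5, 6647 and 7052 in vehicle wells, 3.17-fold lower (limma adjusted p = 2.88e-09). At 48 h the fall was 3.92-fold (adjusted p = 5.01e-11). Nr1i3, the gene for CAR, gave 1178, 1013, 1099, 1241 and 1054 at 3000 µM for 24 h, against 2659.8, 2931, 3202, 3051 and 2770.1 with vehicle. Its log2 changes were -1.39 at 24 h and -1.31 at 48 h (adjusted p = 1.25e-07 and 2.04e-07). Cyp7a1, the rate-limiting enzyme of bile acid synthesis, fell by 1.28 and 1.57 (adjusted p = 0.000138 and 5.29e-06). Usp2, a deubiquitinase under direct clock control in mouse liver, fell by 1.06 and 0.97 (adjusted p = 8.02e-07 and 2.58e-06). Wee1, a cell cycle kinase with E-boxes in its mouse promoter, rose by 0.69 at 24 h (adjusted p = 0.00212), while its change at 48 h was 0.21 (adjusted p = 0.355). Its other tested probe set (1397409_s_at) rose at both times, by 0.88 and 0.90 (adjusted p = 1.14e-08 and 3.78e-09).

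At 300 µM, 3 of the 9 tested output genes rose and 0 fell at each time. Of all tested probe sets, 2.99% were called there at 24 h and 1.54% at 48 h. Alas1, which starts heme synthesis, rose by 0.76 and 0.62, and at 3000 µM fell by 0.32 and 0.36, the first of these a call lost in 4 of 19 other settings. Por, the electron donor of P450 enzymes, and Cyp7a1 were the other 2 that rose at 300 µM. Por rose by 0.54 and 0.46, and Cyp7a1 by 1.81 and 1.02, at 24 h and 48 h.

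Genes of the signals that set the clock in cultured cells were counted from a list of 8 with 7 tested. At 3000 µM 1 rose and 4 fell at 24 h, and 0 rose and 4 fell at 48 h, with medians of -0.21 and -0.38. The 4 that fell at both times at 3000 µM belong to glucocorticoid signalling: the receptor gene Nr3c1 and its targets Tsc22d3, Sgk1 and Fkbp5. Dusp1, another tested gene of this list, was not called at 3000 µM at either time. Its other tested probe set (1368147_at) was not called there either, with changes of -0.23 and -0.13 (limma adjusted p = 0.229 and 0.508). At 300 µM 1 of the 7 rose and 1 fell at 24 h, where 2.99% of all tested probe sets were called. At 48 h 1 rose and 2 fell at 300 µM, where 1.54% were called. Another probe set of Fkbp5 (1388901_at) changed at 300 µM by -0.27 at 24 h and -0.29 at 48 h (limma adjusted p = 0.0268 and 0.0188). Nr3c1 gave 5149.7, 4958, 4584, 4945 and 5218 at 3000 µM for 24 h, against 5587, 5783, 5369, 6110.4 and 5887 in vehicle wells. After 48 h Nr3c1 gave 4438, 3604, 4476, 4449 and 3529.6 at 3000 µM, against 6707, 6407, 7011, 6603 and 6543 with vehicle. The changes were -0.21 (limma adjusted p = 0.0135) and -0.71 (adjusted p = 1.68e-10), of which the first was lost when array medians were centred. The difference of the effects, 48 h minus 24 h, was -0.50 (adjusted p = 0.00235). At 24 h and 48 h the log2 changes were -0.62 and -0.70 for Tsc22d3, -0.57 and -0.88 for Sgk1, and -0.62 and -0.38 for Fkbp5, with adjusted p-values of at most 0.000335. Per1, a glucocorticoid target in liver, was not called in the same wells. Crem, a factor of cAMP signalling, rose by 0.25 at 24 h (adjusted p = 0.0138), a call lost without well 3 of the vehicle group. Its other probe sets disagreed: 1369737_at rose by 0.60 at 24 h and 0.78 at 48 h (adjusted p = 7e-05 and 7.96e-07), while 1387714_at changed by -0.38 at 48 h (adjusted p = 0.0185), and the other 2 were not called. At 300 µM, Crem 1369737_at rose at 48 h (0.52, limma adjusted p = 0.00701) and was not called at 24 h (0.32, adjusted p = 0.129).

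**Figure D5:**
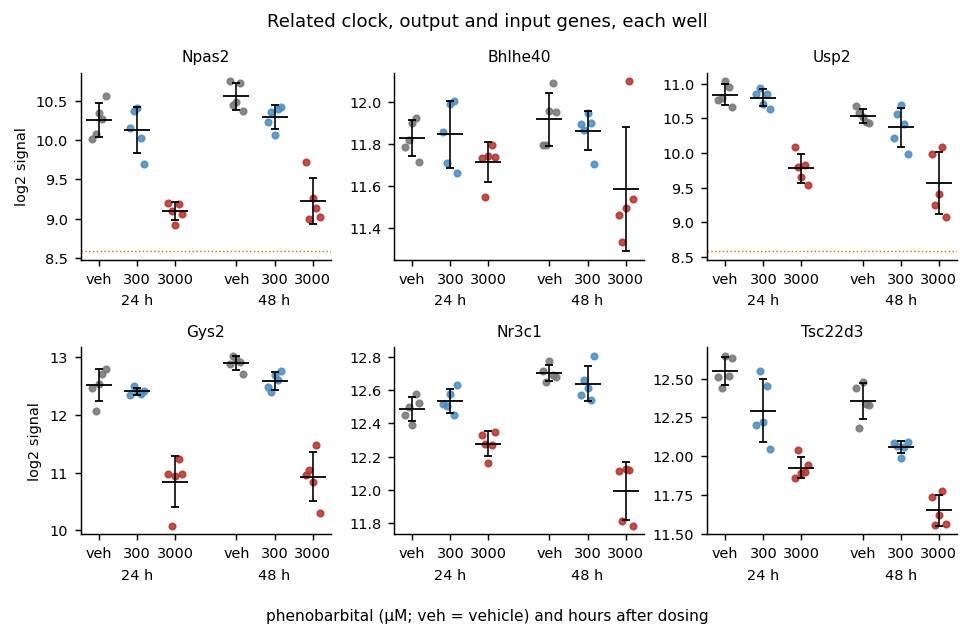
Log2 signal in each well (points) with the mean and SD of 5 wells (bars) for Npas2 and Bhlhe40 (clock regulators), Usp2 and Gys2 (output genes) and Nr3c1 and Tsc22d3 (glucocorticoid signalling), by dose and time. Dotted lines mark the filter level. The 3000 µM wells lie below all vehicle wells of the same time in every panel except those of Bhlhe40.

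The genes whose pattern over the 30 wells was most like that of a member were found for Arntl, Nr1d1 and Dbp among the tested genes. For Arntl the highest Pearson correlations of log2 signal were with Ecpas (0.75), Rchy1 (0.69) and Ly6i (0.68). For Nr1d1 they were with Miat (0.68), Atp6v0a2 (0.68) and Slc9a2 (0.66), and for Dbp with Mars1 (0.70), Mrpl52 (0.64) and Ppp2r5b (0.63). Nr1d1 and Dbp are themselves below the filter level. The 30 points share dose groups and array scaling, and the values are the highest of 9831 tested genes, the members left out, so they are a description only.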

How the data were processed

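Each of 30 wells of primary rat hepatocytes was read on 1 GeneChip Rat Genome 230 2.0 array. The deposited values are intensity signals on a linear scale from MAS5, per the submitters' processing notes, with no version given. Their 2% trimmed means were 1501 on every array, so that they had been scaled before deposit, and none was at or below 0. The annotation gave 20826 probe sets 1 symbol, 436 several and 9780 none, and 57 are controls. Signals were taken as log2 with no further scaling. Probe sets whose mean reached 8.58, the median over arrays and probe sets, in at least 1 of 6 groups were tested. All 6 groups entered 1 limma fit (3.58.1, R 4.3.3; eBayes with a trend and robust), and p-values were adjusted by Benjamini-Hochberg over 16596 probe sets and a threshold of 0.05. Arrays give no read depth, and 5 per group limit the precision. On simulated data for 3000 µM against vehicle at 24 h over 16596 probe sets, 34% of 50 probe sets changed 1.25-fold were recovered, 66% at 1.5-fold, 90% at 2-fold and 96% at 4-fold, with 3 false calls. Only 50 probe sets per fold were changed there, whereas 32% of all tested probe sets were called in the real comparison. The adjusted threshold was therefore stricter in the simulation, and its rates are not the power of the real comparison.

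All 10 clock genes are named. Of each list of related genes at most 6 are named, the largest changes first, among those called at 3000 µM against vehicle. Other probe sets of the listed genes were named after their values were seen, as were Por, Dusp1 and the ratio tests between probe sets of a gene. Members and lists were chosen with earlier results of these data known. Promoters are from RefSeq, build GRCr8, matched by symbol for 9 of 10 genes. Alternatives were other normalizations, log2(signal + 32), no filter, the compared groups alone, array weights, no trend, blocks of arrays, leaving out the 2 arrays that stood apart, and leaving out each well.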

Additional observations from a re-analysis of the deposited data

Results flagged for a closer look

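In each group of 5 wells the highest and lowest well of a gene's leading probe set was compared with its neighbour, over 60 groups, and 3 wells lay far from the other 4. Chance marks about 1 in 20 groups. All 3 belong to genes below the filter level. Per3 was 82.5 in well 5 of the 48 h vehicle group, against 244 to 319.6 in the other 4 wells. Dbp was 299 in well 5 at 300 µM for 24 h, against 229 to 236 in the other 4. Dbp was 165 in well 4 at 300 µM for 48 h, against 271 to 322 in the other 4. None of these wells is on an array that stood apart in its hybridization controls.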

How the results depend on the processing

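Over the 19 other settings of each value, Clock and Cry1 kept their calls at 3000 µM against vehicle at both times, as did Nr1d2 1390430_at at 24 h, and Nr1d2 1370541_at and Tef 1385374_at at both times. Of 7258 recomputed values, 7016 stayed on their side of the threshold, 164 lost a call, 78 gained one, and 0 called values changed sign. The count of called genes at 3000 µM against 300 µM was 4 at 24 h, and 1 under quantile normalization and with no filter. At 48 h it was 2, and 1 under quantile normalization, with array medians centred, with no filter, with the compared groups alone and with the array block. Leaving out single wells gave 1 to 4 at 24 h and 1 to 2 at 48 h. For vehicle at 48 h against 24 h it was 0, and 1 (Per1) without the 2 arrays that stood apart, with 0 to 1 when single wells were left out. The cause was not tested. Counting a gene by any tested probe set gave 4 at 24 h against 3, and 6 at 48 h against 4, for 3000 µM against vehicle. A gene with more tested probe sets has more chances of a call, and the share of all genes called in this way was not computed. The counts of the other comparisons stayed within 1.5 times the reported ones.

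The running numbers in the labels gave 5 sets of 6 arrays. Deviations from the group means correlated at 0.0052 within a set on average and -0.0013 between sets. These are averages of correlations taken across all tested probe sets. They cannot show whether the wells of a set vary together in some of the genes. With the replicate block of array sets, the only count of clock genes that moved past 1.5 times was the 48 h comparison of the doses given above. Nr1d1, Dbp and Per3, below the filter level, were called in no comparison when the fit was run with no filter.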
